A study of Homo sapiens with 15 samples.

Results

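Cells held in a double thymidine block were compared with asynchronously growing cells, with the MDM2 antagonist Nutlin present in both. The comparison takes 5 of the 15 libraries in the series: 2 non-released (blocked) libraries and 3 asynchronous libraries, all given Nutlin, and it was described across all genes. The cells were U2OS, an established human osteosarcoma line that carries wild-type p53, so every value here comes from a single line. Blocked cells had 2 mM thymidine for 16 h, 8 h without it and 16 h with it again, and Nutlin at 10 µM went in 4 h before the block would have been lifted; here the block was maintained. Asynchronous cells had Nutlin and no thymidine. The sources used here do not give how long asynchronous cells had Nutlin, nor when non-released cells were harvested, and the unit prefix of the dose was lost in the labels and is read as micro. A further pair of Nutlin libraries, harvested 4 h after release into S-phase, entered the fit for the estimate of the spread and counted in the filter on low values, and their levels are given as a description. DMSO libraries were used only where the effect of the block with and without Nutlin was compared. Whether replicates came from separate cultures is not in the labels, and p-values therefore reflect the spread between these libraries only, which may be technical.

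Excess thymidine raises the cellular pool of dTTP, which inhibits the reduction of CDP by ribonucleotide reductase and so starves replication forks of dCTP. Cells collect at the border of G1 and S-phase or in early S-phase, where the E2F factors drive the genes of DNA replication and where histone messages are made in step with DNA synthesis. Nutlin keeps MDM2 from binding p53, so p53 accumulates and switches on its targets, among them the kinase inhibitor gene CDKN1A. In a bulk library, fewer cells of a cell cycle phase and less RNA per cell cannot be told apart.

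Reads assigned to genes came to 15.30 and 20.19 M reads in the non-released libraries and 23.34, 11.89 and 15.44 M reads in the asynchronous ones (replicates 1 to 3). Levels are the deposited variance-stabilised values, which behave as log2 values at high expression and shrink differences at low expression. Differences are non-released minus asynchronous in these units and are given ± their standard error (SE), and folds were computed from mean normalised reads recovered from the same values. Tests were limma with Benjamini-Hochberg adjustment over 13991 genes, two-sided, and a gene was called when its adjusted p lay under 0.05. Of 22 bone and mesenchymal markers, 7 lay under 20 normalised reads in each of the 5 libraries. These were the bone genes SP7, BGLAP, IBSP and DLX5 and the mesenchymal genes COL1A2, NT5E and TWIST1, of which SP7 and TWIST1 had 0 reads in all 5 and COL1A2 had 0.7 to 4.0. The summed level of the 22 markers ran from 67719 to 68086 in blocked and from 73632 to 77705 in asynchronous cells, led by VIM. Epithelial markers summed to 13966 and 14194 in blocked against 13541 to 15021 in asynchronous cells, nearly all of it from KRT8 and KRT18. Of the 22 epithelial markers 10 passed the filter on low values, with a median of 0.29. Of these, 6 (CDH1, CLDN4, EPCAM, KRT14, KRT8 and MUC1) were higher in blocked cells and KRT18 was lower. Across all 13991 genes tested, 24.9% were called higher and 24.7% lower. MUC1, at 5.70, 5.68 and 5.53 in the asynchronous libraries, passed that filter only through blocked and S-phase libraries. CDH1 had 78.6 and 82.8 normalised reads in blocked against 27.8 to 43.8 in asynchronous cells. The count of 6 was 3 without non-released replicate 1, 4 without asynchronous replicate 2, 2 with a stricter filter and 1 with all 15 libraries, and the part of these markers in other results was not tested. Of 15 blood markers, 6 to 9 had 0 reads in each library.

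Genes changed in both directions with the block. Of the 13991 genes, 3483 (24.9%) were higher in blocked cells and 3462 (24.7%) were lower, and 6920 of these 6945 genes had groups that did not overlap, as did 9984 of all 13991 genes (71.4%). The balance of directions depended on the scaling and the filter, with 3132 higher and 3852 lower when each library was shifted to the same median and 2253 and 3204 under a stricter filter. Differences of 1 or more were called for 264 genes (1.89%) upwards and for 150 genes (1.07%) downwards. The median absolute difference of the called genes was 0.47, the smallest called difference 0.18 and the median SE 0.10. The first principal component of the 5 libraries held 83.8% of the variance and separated the states, at 31.5 and 30.5 for blocked and -20.3, -22.8 and -19.0 for asynchronous libraries. With about 1 gene in 4 called each way, a list is read below against 24.9% and 24.7%. Nearly every called gene lacked overlap, so its absence for single genes below is a description only.

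Genes that E2F factors switch on at the border of G1 and S-phase had the largest share of higher members among the lists. Of 40 such genes, 32 were higher and 1 was lower, with a median difference of 0.64 against -0.00 over all genes, and 5 were higher by 1 or more. CCNE2, which encodes a cyclin that activates CDK2 for entry into S-phase, lay at 10.17 and 10.23 in the blocked libraries and at 8.41, 8.40 and 8.39 in the asynchronous ones. All blocked values were above all asynchronous ones, a difference of 1.80 ± 0.09 (SE, adjusted p = 1.32e-07) and a 3.97-fold rise in normalised reads. Its relative CCNE1 lay at 11.54 and 11.59 against 10.46, 10.53 and 10.49, a rise of 1.07 ± 0.08 (adjusted p = 9.28e-07).

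FAM111A, which encodes a protease that works at replication forks, lay at 12.30 and 12.43 against 10.99, 10.92 and 10.98 (1.40 ± 0.07, adjusted p = 2.48e-07). Its neighbour in the family, FAM111B, lay at 11.61 and 11.46 against 9.61, 9.70 and 9.92 (1.79 ± 0.10, adjusted p = 3.31e-07). Groups did not overlap for either gene, and folds were 2.69 and 3.62. Among the E2F genes themselves, E2F1 rose by 0.95 ± 0.09 (10.40 and 10.56 against 9.45 to 9.64) and E2F2 by 1.6 ± 0.14 (9.10 and 9.16 against 7.25 to 7.71). E2F3 was the only member of the list called lower, at 9.83 and 9.84 against 10.05 to 10.20 (-0.28 ± 0.08, adjusted p = 0.0108), and is named after its values were seen. TK1, the thymidine kinase gene, rose by 0.55 ± 0.07. TYMS, which makes thymidylate, stood at 12.28 and 12.07 against 12.09, 11.86 and 11.96 (0.21 ± 0.09, adjusted p = 0.0721), and its groups overlapped. SLBP, which binds the stem-loop of histone messages, stood at 9.92 and 10.07 against 9.60, 9.91 and 9.79 (0.23 ± 0.10, adjusted p = 0.0715).

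Promoters are shown for the list's members with the smallest p that have an entry in the RefSeq promoter table (GRCh38.p14, 250 bases before to 50 bases after the start, 5′ to 3′). They are FAM111A (chr11:59142606-59142905, plus strand) and CCNE1 (chr19:29811741-29812040, plus strand). The letters searched were those of an E2F site, TTTCCCGC or TTTGGCGC, on both strands, and neither window holds them, which says only that these letters are not there.
FAM111A: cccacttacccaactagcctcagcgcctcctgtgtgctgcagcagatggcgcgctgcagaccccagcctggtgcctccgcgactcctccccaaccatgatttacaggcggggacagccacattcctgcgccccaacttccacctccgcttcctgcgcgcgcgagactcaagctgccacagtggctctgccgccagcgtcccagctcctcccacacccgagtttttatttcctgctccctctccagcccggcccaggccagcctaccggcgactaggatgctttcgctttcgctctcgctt
CCNE1: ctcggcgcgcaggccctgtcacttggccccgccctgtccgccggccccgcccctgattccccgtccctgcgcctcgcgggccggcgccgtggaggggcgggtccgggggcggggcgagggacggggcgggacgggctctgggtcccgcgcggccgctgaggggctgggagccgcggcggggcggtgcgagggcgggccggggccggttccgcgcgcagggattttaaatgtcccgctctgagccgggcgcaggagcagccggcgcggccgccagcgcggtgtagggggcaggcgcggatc
Of the 40 genes, 32 had an entry, and 16 of these 32 windows (50.0%) hold one of the E2F words, against 631 of 27305 promoters in the table (2.3%). This match of letters is a description and not evidence of binding.

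**Figure D1:**
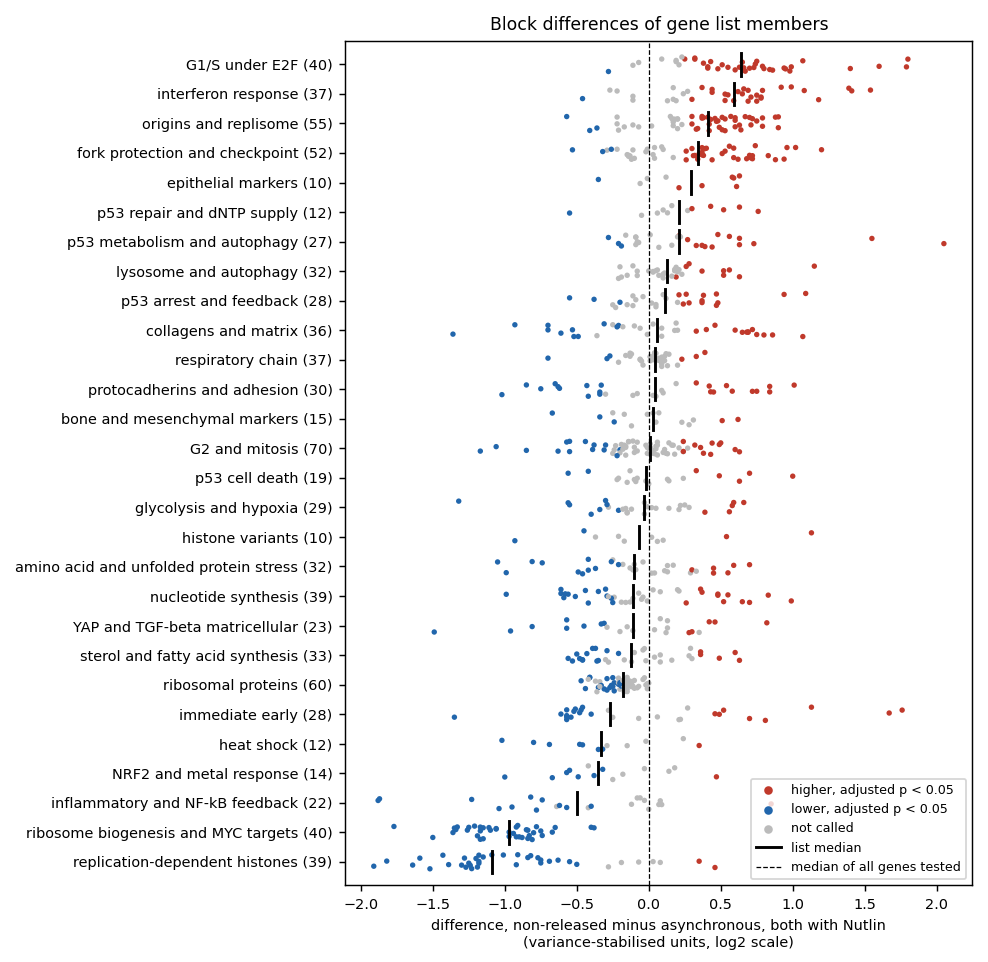
Differences of single genes, non-released minus asynchronous with Nutlin, on the deposited log2 scale (horizontal axis), for the gene lists with at least 10 tested members (number in brackets); red and blue points passed limma's test, grey points did not, black bars are list medians and the dashed line is the median of all genes. Every point of the ribosome biogenesis list lies to the left of the dashed line, and the G1/S list has its median at 0.64.

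The machinery that licenses, fires and copies origins was shifted the same way, by smaller amounts. Of 55 genes of origins and the replisome, 35 were higher and 3 lower, with a median of 0.41 and none past 1 in either direction. CDC6, which loads the MCM helicase, lay at 12.02 and 12.09 against 11.20, 11.24 and 11.35 (0.79 ± 0.08, adjusted p = 6.24e-06). The clamp loader gene RFC4 (0.90 ± 0.09) and the polymerase alpha-primase genes PRIM1 (0.90 ± 0.09) and POLA2 (0.79 ± 0.08) rose with it, 1.92-, 1.93- and 1.80-fold. PRIM1 lay at 10.72 and 10.74 against 9.77, 9.88 and 9.85, so its groups stood well apart. The sliding clamp gene PCNA, also a p53 target, rose by 0.63 ± 0.07 (13.10 and 13.24 against 12.50 to 12.56). The 3 lower members, named after their values were seen, were POLE3 (-0.57), ORC2 (-0.41) and POLD2 (-0.36).

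Fork protection and checkpoint genes rose in 32 of 52 cases and fell in 3, with a median of 0.34. BRIP1, a helicase gene of the Fanconi anaemia pathway, lay at 12.03 and 12.07 against 10.79, 10.78 and 10.97 (1.20 ± 0.08, adjusted p = 7.68e-07), a 2.34-fold rise with no overlap. FANCL, the ubiquitin ligase gene of that pathway, rose by 1.02 ± 0.09, BRCA1 by 0.94 ± 0.09 and the nuclease gene EXO1 by 0.83 ± 0.08. BRCA1 lay at 11.40 and 11.43 in blocked cells and from 10.40 to 10.57 in asynchronous ones. Among checkpoint kinase genes of the list, CHEK2 rose by 0.44 and CHEK1 by 0.26, while ATR (-0.14) and WEE1 (0.04) did not pass the test. NBN (-0.53), WRN (-0.32) and RAD18 (-0.26) were the members called lower. These genes other than BRIP1, FANCL, BRCA1 and EXO1 are named after their values were seen.

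Nucleotide synthesis genes did not shift as a whole, with 11 of 39 genes higher (28.2%), 14 lower (35.9%) and a median of -0.11. The ribonucleotide reductase genes RRM2 and RRM1 rose by 0.99 ± 0.09 and 0.70 ± 0.08. RRM2 lay at 13.36 and 13.21 against 12.45, 12.25 and 12.18, a 2.00-fold rise in normalised reads. RRM2B, the subunit gene that p53 induces, lay at 13.48 and 13.49 against 13.59, 13.57 and 13.45 (-0.05 ± 0.08, adjusted p = 0.673). Its groups overlapped, and with quantile normalisation its difference was 0.28 and called. SHMT1, which feeds carbon into thymidylate, rose by 0.83 ± 0.09. DHODH, the mitochondrial enzyme gene of pyrimidine synthesis, lay at 7.77 and 7.99 against 8.76, 8.96 and 8.91 (-0.99 ± 0.11, adjusted p = 2.47e-05). The purine genes PPAT (-0.61), IMPDH1 (-0.61), ADSL (-0.59), PFAS (-0.58), GART (-0.35), PAICS (-0.30) and PRPS1 (-0.26) were called lower. ATIC (-0.24), IMPDH2 (-0.07) and GMPS (0.08) did not pass and PRPS2 (0.37) was higher. CTPS2, a pyrimidine gene, was higher (0.52), whereas CTPS (-0.56) and UMPS (-0.25) were lower. DCTD, a deoxynucleotide gene, was lower (-0.51), and CAD (-0.19) did not pass. The genes given here from PPAT on are named after their values were seen.

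Replication-dependent histone genes had the lowest list median, -1.09, a rank that depended on the fit. Without asynchronous replicate 1 the median was -0.91, against -0.998 for ribosome biogenesis, and with no filter -0.633 against -0.968. Of 59 such genes listed, 39 were tested, of which 32 were lower (82.1%), 21 of them by 1 or more, and 2 were higher. HIST1H2BJ lay at 10.77 and 10.68 in blocked cells and at 12.95, 12.52 and 12.44 in asynchronous cells, and at 14.67 and 14.54 in the S-phase libraries. It fell by 1.91 ± 0.12 (adjusted p = 5.17e-07), so that asynchronous cells had 3.91 times the normalised reads. HIST1H2AH fell by 1.82 ± 0.11 (10.96 and 10.90 against 12.57 or more). HIST2H2BE, which varied least among replicates, lay at 10.27 and 10.27 against 11.47, 11.40 and 11.45 (-1.18 ± 0.07, adjusted p = 3.69e-07) and at 12.99 and 13.06 in S-phase. HIST1H2AC fell by 1.39 ± 0.09. Blocked libraries were thus lowest and S-phase libraries highest for these histone genes, with asynchronous cells between.

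The 2 genes called higher, HIST1H4D and HIST1H3E, lost that call without asynchronous replicate 3, without either non-released replicate, with all 15 libraries and with no filter. HIST1H4D lay at 9.89 and 9.92 against 9.87, 9.29 and 9.19 (0.46 ± 0.16, adjusted p = 0.0303, up to 0.248 over the alternatives). HIST1H3E, with mean normalised reads of 20.4 in blocked and 9.9 in asynchronous cells (adjusted p = 0.0418, up to 0.295), passed the filter on low values only through the blocked and S-phase libraries. HIST1H4C lay at 10.91 and 10.95 against 11.34, 10.64 and 10.71 (0.03 ± 0.16, adjusted p = 0.889). These are named after their values were seen. Asynchronous replicate 1 was the highest asynchronous library for HIST1H2BJ, HIST1H2AH, HIST1H4D and HIST1H4C. Histone genes are near-identical copies whose 50-nt reads could be split by the counting, so single members are uncertain. Most of these messages also lack a poly(A) tail, on which kits of the type named in the labels select. The ribosomal precursor gene RN45S, likewise without such a tail, took 3.70% and 0.60% of reads in the blocked libraries and 0.45%, 0.25% and 0.17% in the asynchronous ones. The blocked libraries, at 3.70% and 0.60%, gave 10.77 and 10.68 for HIST1H2BJ and 10.27 and 10.27 for HIST2H2BE; the part of RN45S in the result was not tested.

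**Figure D2:**
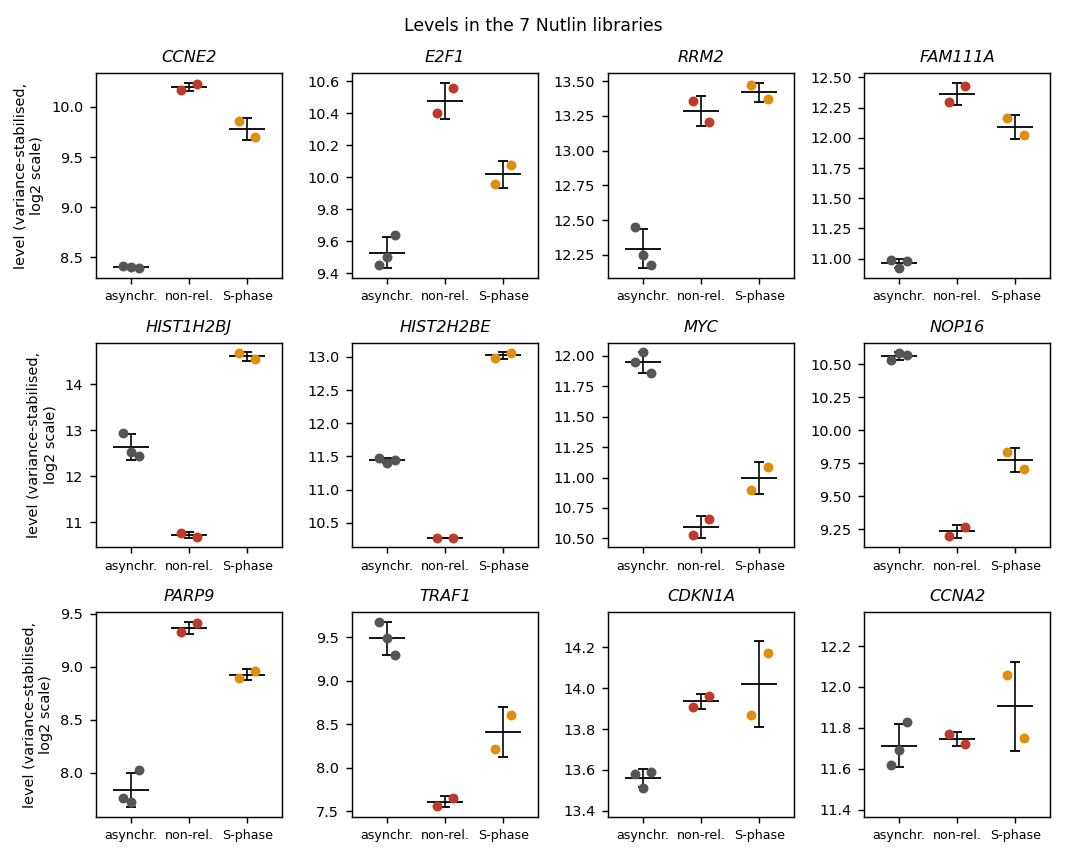
Levels (vertical axis, deposited variance-stabilised values, log2 scale, a separate range in each panel) of 12 genes in the Nutlin libraries: asynchronous (n = 3), non-released (n = 2) and S-phase (n = 2); points are libraries, bars the mean with the SD. HIST1H2BJ and HIST2H2BE are lowest in non-released and highest in S-phase cells, whereas CCNE2 is highest in non-released cells and CCNA2 has overlapping groups.

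Promoters of histone members with the smallest p that have a RefSeq entry are shown because 32 of the 39 tested genes of the list were lower. They are HIST2H2BE, listed there as H2BC21 (chr1:149886633-149886932, minus strand), and HIST1H2AC, listed as H2AC6 (chr6:26123922-26124221, plus strand). Capitals mark the letters CCAAT and TATAAA on either strand.
HIST2H2BE: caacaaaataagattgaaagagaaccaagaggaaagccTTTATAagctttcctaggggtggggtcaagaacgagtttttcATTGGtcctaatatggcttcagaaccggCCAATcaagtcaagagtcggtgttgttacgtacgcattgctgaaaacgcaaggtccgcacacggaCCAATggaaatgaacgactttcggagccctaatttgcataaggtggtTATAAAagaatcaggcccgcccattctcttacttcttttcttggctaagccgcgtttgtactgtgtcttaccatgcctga
HIST1H2AC: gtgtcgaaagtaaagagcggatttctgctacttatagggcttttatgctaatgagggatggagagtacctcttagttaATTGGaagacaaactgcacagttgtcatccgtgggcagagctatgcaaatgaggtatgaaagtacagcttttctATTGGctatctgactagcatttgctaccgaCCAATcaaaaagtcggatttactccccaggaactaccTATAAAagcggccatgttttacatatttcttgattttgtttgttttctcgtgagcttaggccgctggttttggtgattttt
Both windows hold CCAAT in 3 places, and the TATA letters occur in 2 places in the former and in 1 in the latter. Of the 39 tested histone genes 32 had an entry; 27 of the 32 windows (84.4%) hold CCAAT and 24 (75.0%) hold TATAAA, against 35.7% and 12% of the 27305 promoters.

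Genes of G2 and mitosis had a median of 0.01, with 11 of 70 higher (15.7%) and 14 lower (20%), both shares under those of all genes. The sign of that median turned to -0.03 with each library shifted to the same median, and it was 0.15 with quantile normalisation, where 24 were higher and 10 lower. The members split: CDC20, the activator of the anaphase-promoting complex, lay at 10.87 and 10.85 against 11.72, 11.92 and 12.12 (-1.06 ± 0.10, adjusted p = 6.02e-06). The helicase gene PIF1 fell by 1.17 ± 0.12, the mitotic kinase gene PLK1 by 0.85 ± 0.10, CKS2 by 0.63 ± 0.09 and the mitotic cyclin gene CCNB1 by 0.55 ± 0.09. PLK1 lay at 9.04 and 8.89 against 9.71 to 9.89, without overlap. CCNA2, the cyclin of S-phase and G2, lay at 11.77 and 11.72 against 11.62, 11.69 and 11.83 (0.03 ± 0.10, adjusted p = 0.797). CDK1, named after its values were seen, rose by 0.50 ± 0.08 (12.72 and 12.74 against 12.19 to 12.31). SPC25 (0.63), NUSAP1 (0.49), CDC25C (0.43) and NDC80 (0.38) were higher too, and CCNB2 (0.03), KIF20A (0.01), BUB1 (-0.08) and CENPF (-0.18) did not pass, all named after their values were seen.

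Ribosome biogenesis factors and MYC targets were the only list in which each member tested was called in the same direction. All 40 were lower in blocked cells, with a median of -0.97, 19 of them by 1 or more, and all 40 were also lower with each of the 5 libraries left out in turn. MYC itself, the transcription factor gene, lay at 10.53 and 10.66 against 11.95, 12.03 and 11.86 (-1.35 ± 0.08, adjusted p = 4.69e-07). Asynchronous cells had 2.61 times the normalised MYC reads, and S-phase libraries stood at 10.90 and 11.09. ODC1, the polyamine synthesis gene, lay at 12.58 and 12.61 against 13.82, 13.88 and 13.89 (-1.26 ± 0.08, adjusted p = 3.69e-07).

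The assembly factor gene RRS1 lay at 9.11 and 8.89 against 10.86, 10.82 and 10.63 and fell by 1.77 ± 0.10, the largest difference of the list. NOP16 lay at 9.20 and 9.27 against 10.53, 10.59 and 10.57 (-1.33 ± 0.08), and WDR43 at 12.04 and 12.06 against 13.23, 13.29 and 13.27 (-1.21 ± 0.07). Both had an adjusted p of 3.69e-07. The smallest falls were those of NHP2 (-0.38) and FBL (-0.40), both core proteins of the small nucleolar particles that modify ribosomal RNA. RNA polymerase I subunit genes POLR1B (-0.97), POLR1C (-0.84) and POLR1A (-0.74) lay in between. These 5 are named after their values were seen. The list's median level was -1.0 and -1.01 relative to the asynchronous mean in the blocked libraries, and -0.63 and -0.69 in the S-phase libraries.

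Promoters of the members with the smallest p, WDR43 (chr2:28894417-28894716, plus strand) and NOP16 (chr5:176388549-176388848, minus strand), are given with the E-box CACGTG, the word that MYC binds, in capitals.
WDR43: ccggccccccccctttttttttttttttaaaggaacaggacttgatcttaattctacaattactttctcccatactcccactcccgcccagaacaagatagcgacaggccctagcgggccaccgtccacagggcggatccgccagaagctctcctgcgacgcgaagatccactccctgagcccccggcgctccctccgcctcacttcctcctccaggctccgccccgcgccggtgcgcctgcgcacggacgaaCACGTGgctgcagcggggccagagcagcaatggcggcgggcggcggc
NOP16: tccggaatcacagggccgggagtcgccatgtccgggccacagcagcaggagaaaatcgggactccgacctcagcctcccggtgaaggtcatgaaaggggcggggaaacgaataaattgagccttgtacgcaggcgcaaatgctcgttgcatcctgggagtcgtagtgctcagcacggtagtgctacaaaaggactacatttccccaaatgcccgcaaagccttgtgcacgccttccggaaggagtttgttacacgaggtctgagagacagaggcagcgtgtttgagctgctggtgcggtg
WDR43 holds the word in 1 place and NOP16 in none. Of the 40 genes 34 had an entry, and 11 of these windows (32.4%) hold CACGTG, against 2030 of 27305 promoters (7.4%).

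Ribosomal protein genes moved far less than the factors that build ribosomes. Of 60, 19 were lower (31.7%) and none was higher, with a median of -0.18 that turned to 0.05 with quantile normalisation (6 higher, 7 lower). RPL27A fell by 0.47 ± 0.07 (12.14 and 12.15 against 12.58 to 12.64) and RPL13 by 0.44 ± 0.08, which did not pass with quantile normalisation (adjusted p = 0.167). The count of lower genes was 11 without asynchronous replicate 2, 12 without non-released replicate 1, 7 without non-released replicate 2, and 5 with all 15 libraries in the fit. The same count was 25 with each library shifted to the same median, 29 with replicate number in the model and 31 with the 5 libraries alone. Many of these genes have processed copies in the genome, which makes single values uncertain.

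Lists of protein folding, stress and metabolism gave mixed counts. Of 12 heat shock genes, 7 were lower and 1 was higher (CRYAB, 0.35, named after its value was seen), with a median of -0.33. The constitutive chaperone gene HSPA8 lay at 14.43 and 14.34 against 15.45, 15.38 and 15.39 (-1.02 ± 0.09, adjusted p = 3.75e-06), and HSP90AB1 fell by 0.80 ± 0.08, the latter not past the test with quantile normalisation (adjusted p = 0.0632). Without non-released replicate 2 the lower heat shock genes numbered 4. Of 14 genes of the NRF2 and metal response, 7 were lower, among them the metallothionein gene MT2A (-1.0 ± 0.17, adjusted p = 0.0554 with no filter) and the thioredoxin reductase gene TXNRD1 (-0.55 ± 0.08), and NQO1 was higher (0.47, named after its value was seen). The amino acid transporter genes SLC7A5 (-1.05 ± 0.09) and SLC3A2 (-0.74 ± 0.08), whose products form 1 carrier, fell. SLC7A5 lay at 12.42 and 12.41 against 13.27, 13.61 and 13.53. They belong to a list of amino acid transport and unfolded protein stress, in which 32 genes were tested, with 6 higher, 11 lower and a median of -0.10, which was 0.10 with quantile normalisation. HK2, the inducible hexokinase gene, fell by 1.32 ± 0.09 (9.20 and 9.02 against 10.31 to 10.52), in a glycolysis and hypoxia list that otherwise split (5 of 29 higher, 8 lower, 4 without non-released replicate 1). With quantile normalisation 10 genes of the glycolysis and hypoxia list were higher and 5 lower. Without that scaling the 5 higher ones were ENO2 (0.66 ± 0.11), SLC2A3 (0.59), BNIP3L (0.58), PFKFB4 (0.56) and ALDOC (0.39). Of 33 sterol and fatty acid synthesis genes, 13 were lower and 5 higher, and with quantile normalisation 2 were lower and 8 higher. FADS1 (0.63 ± 0.08), ACSS2 (0.60), STARD4 (0.49), FADS2 (0.36) and HSD17B7 (0.36) were the higher ones. Respiratory chain genes showed 3 of 37 in either direction (8.1%), under the share of all genes; with quantile normalisation 14 were higher. NDUFB5 (0.39 ± 0.10), SDHA (0.33 ± 0.08) and COX5B (0.23) were higher, and CYCS (-0.70 ± 0.09), SDHB (-0.29 ± 0.08) and UQCRFS1 (-0.27) lower. SDHB lost its call with all 15 libraries and with quantile normalisation, and NDUFB5 with no filter. Members given here without an SE are named after their values were seen.

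Interferon-stimulated genes were higher in blocked cells. Of 54 such genes listed, 37 passed the filter on low values, of which 26 were higher (70.3%) and 1 lower, with a median of 0.59. PARP9, which pairs with DTX3L in antiviral signalling, lay at 9.33 and 9.41 against 7.76, 7.72 and 8.02 (1.54 ± 0.11, adjusted p = 8.90e-07), a 3.47-fold rise. SAMD9, an antiviral factor gene, lay at 10.25 and 10.22 against 9.03, 8.67 and 8.76 (1.41 ± 0.10), PARP14 rose by 1.08 ± 0.08 and DTX3L by 0.92 ± 0.08. Groups did not overlap for any of these 4 genes, as for 6920 of the 6945 called genes and 71.4% of all genes. SAMD9 stood higher still in the S-phase libraries, at 10.67 and 10.60. The classical member IFIT1 rose by 1.18 ± 0.17, from 17.9 to 87.9 mean normalised reads, and ISG15 by 0.78 ± 0.14 (8.60 and 8.69 against 7.61 to 8.15). MX1 (0.27) did not pass the test, and TRIM25 (-0.46) was the lower gene. IFIT1, ISG15, MX1 and TRIM25 are named after their values were seen. The higher genes numbered 15 with a stricter filter on low values, which tests fewer genes, and 18 with no filter. The list median was 0.513 without non-released replicate 2 and 0.627 without non-released replicate 1.

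Inflammatory and NF-kB feedback genes lay on the other side. Of 22, 11 were lower (50.0%) and 1, PTGS2, was higher (0.85 ± 0.12, named after its value was seen), with a median of -0.50. TRAF1, an adaptor gene of the TNF receptor family, lay at 7.56 and 7.65 against 9.68, 9.49 and 9.30 (-1.88 ± 0.14, adjusted p = 9.28e-07), 4.72 times the reads in asynchronous cells. TNFAIP3, the ubiquitin-editing inhibitor of NF-kB, fell by 1.23 ± 0.10 (8.45 and 8.58 against 9.63 to 9.88), RELB by 1.04 ± 0.13 and NFKB1 by 0.74 ± 0.08. The chemokine gene CCL3 fell by 1.87 ± 0.28, but its asynchronous values spread over 9.22, 8.35 and 7.85, and it has near-identical copies in the genome. Without asynchronous replicate 1, the highest library for CCL3 and TRAF1, the list median was -0.28.

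Immediate early genes were divided, with 8 of 28 higher and 13 lower. FOS, a subunit gene of the AP-1 factor, lay at 8.85 and 8.69 against 7.22, 6.95 and 6.86 (1.76 ± 0.13, adjusted p = 9.28e-07), and ATF3 rose by 0.70 ± 0.10. EGR1, named after its values were seen, lay at 9.28 and 8.29 against 7.49, 7.09 and 6.75 (1.67 ± 0.25, adjusted p = 0.000160), with the blocked replicates far apart. MYC and SPRED1 (-0.57 ± 0.08), a brake on RAS signalling, fell. The count of higher genes was 5 without asynchronous replicate 2 and 5 without non-released replicate 2.

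The direct targets of p53, measured with Nutlin in both groups, did not move as 1 group. CDKN1A, which encodes p21, lay at 13.91 and 13.96 against 13.58, 13.51 and 13.59 (0.37 ± 0.09, adjusted p = 0.00458), 1.30 times the reads without overlap; with all 15 libraries in the fit it did not pass (adjusted p = 0.632), nor with no filter (adjusted p = 0.0607). MDM2 lay at 14.79 and 14.84 against 14.71, 14.60 and 14.55 (0.20 ± 0.08, adjusted p = 0.0689). It was called higher in some alternatives: the 5 libraries alone, 13 of the 15 libraries, the method voom, quantile normalisation, and without asynchronous replicate 1. Of 28 arrest and feedback targets, 12 were higher (42.9%) and 3 lower, with a median of 0.11. CCNG2 rose by 1.09 ± 0.12, TP53INP1 by 0.94 ± 0.08 and the phosphatase gene PPM1D by 0.47 ± 0.07, while GADD45A fell by 0.55 ± 0.11. With 15 libraries TP53INP1 and PPM1D did not pass (adjusted p = 0.407 and 0.259), and with no filter GADD45A did not (adjusted p = 0.0571). ZMAT3 (-0.38) and CDC42SE1 (-0.20), named after their values were seen, were the other lower genes. The higher genes numbered 7 without non-released replicate 2 and 1 with all 15 libraries in the fit.

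Cell death targets counted 5 higher and 2 lower of 19, with a median of -0.02 that was 0.11 with quantile normalisation. The caspase gene CASP6 rose by 1.00 ± 0.10 and APAF1, the apoptosome gene, by 0.70 ± 0.09, and the death receptor gene TNFRSF10B fell by 0.56 ± 0.10. TNFRSF10B lay at 11.78 and 11.97 against 12.52, 12.38 and 12.41, and CASP6 at 8.79 and 8.79 against 7.77, 7.84 and 7.77, both without overlap. AEN (-0.42) was the other lower gene and PIDD (0.33), PERP (0.49) and TP53I3 (0.63) the other higher ones, of which AEN, PIDD and PERP are named after their values were seen. Repair targets counted 5 of 12 higher and 1 lower, led by the damage sensor genes DDB2 (0.76 ± 0.07) and XPC (0.52 ± 0.07), with PCNA and RAD51C (0.30), the latter named after its value was seen, among the others, and with GADD45A lower. Metabolism and autophagy targets counted 13 of 27 higher (48.1%) and 3 lower, with a median of 0.21. The glucose transporter gene SLC2A12 lay at 9.36 and 9.23 against 6.86, 7.31 and 7.57 (2.05 ± 0.20, adjusted p = 6.43e-06), and the glutaminase gene GLS2 at 7.62 and 7.85 against 6.27, 6.15 and 6.12 (1.55 ± 0.13). Folds of normalised reads were 5.58 and 6.06, and GLS2 did not pass with 15 libraries (adjusted p = 0.0742). SCO2 (-0.28), C12orf5 (-0.21) and GPX1 (-0.19), named after their values were seen, were lower. In that list 8 were higher without non-released replicate 2 and 5 with all 15 libraries. CCND1, the cyclin gene of early G1, fell by 0.85 ± 0.07 (12.24 and 12.28 against 13.07 to 13.17).

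**Figure D3:**
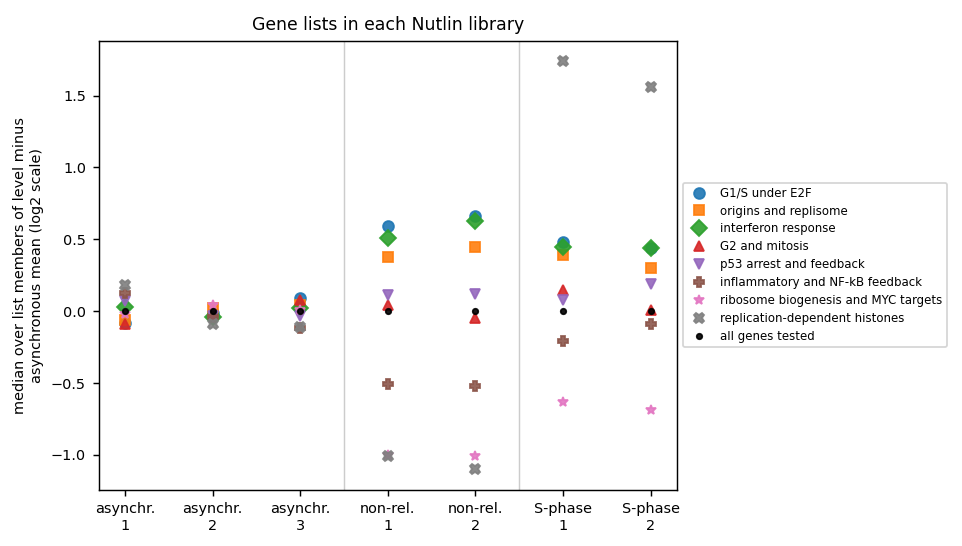
Median over the tested members of 8 gene lists, and over all genes, of the level in each of the 7 Nutlin libraries minus the mean of the 3 asynchronous libraries (vertical axis, log2 scale); each symbol is 1 list in 1 library. Histone genes lie at -1.01 and -1.10 in non-released and at 1.74 and 1.56 in S-phase cells, and ribosome biogenesis genes lie at or under -0.63 in all 4 libraries of thymidine-treated cells.

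Matrix and adhesion genes changed in both directions. Of 36 collagens and matrix genes, 13 were higher and 11 lower. The lower genes numbered 7 without non-released replicate 1 and 5 with quantile normalisation or with no filter, and the higher genes 8 with all 15 libraries or with no filter. COL4A5 (1.07 ± 0.10), COL11A1 (0.86 ± 0.10) and the fibrillin gene FBN1 (0.75 ± 0.09) rose. The laminin gene LAMB3 lay at 11.76 and 11.93 against 13.26, 13.24 and 13.13 and fell by 1.36 ± 0.10. Integrin genes ITGA3 and ITGA5 fell by 1.02 ± 0.13 and 0.85 ± 0.08 while the protocadherin gene PCDHB5 rose by 0.84 ± 0.10, in a list with 11 of 30 in either direction and 6 higher under a stricter filter. Of 23 YAP- and TGF-beta-responsive genes, 8 were lower and 5 higher, with a median of -0.11 that was 0.10 with quantile normalisation. TAGLN, an actin-binding gene, lay at 10.50 and 10.74 against 12.26, 12.06 and 12.01 (-1.49 ± 0.09), THBS1, the thrombospondin gene, fell by 0.96 ± 0.08 and the receptor kinase gene AXL by 0.81 ± 0.09. The higher genes of that list, named after their values were seen, were BMP4 (0.82), ACTA2 (0.46), TGFBI (0.42), ID2 (0.30) and SKIL (0.28). The list counted 2 higher genes without non-released replicate 2 or asynchronous replicate 2, 3 without non-released replicate 1 or asynchronous replicate 3, and 1 with all 15 libraries, and with no filter these 5 did not pass. Among lysosome and autophagy genes 9 of 32 were higher (28.1%), against 24.9% of all genes, and none was lower, led by GABARAPL1 (1.15 ± 0.13). That count depended on the fit, with 17 higher under quantile normalisation, 14 with the 5 libraries alone and 5 with all 15 libraries or with no filter.

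The replication-independent histone variants are a separate small list, in which 2 of 10 were higher and 2 lower. The linker histone gene H1F0 fell by 0.93 ± 0.10 (11.62 and 11.77 against 12.57 to 12.72) and H3F3B by 0.45 ± 0.07. The macroH2A gene H2AFY2 rose by 1.13 ± 0.13 (9.07 and 9.29 against 7.85 to 8.30) and H2AFJ by 0.54 ± 0.10. The fall of H3F3B lost its call with quantile normalisation (adjusted p = 0.239).

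Across all genes, the largest rise among genes whose groups did not overlap and that had 50 or more mean reads was that of LBH, a transcription cofactor gene of limb bud and heart. LBH lay at 11.94 and 12.08 against 9.61, 9.34 and 9.68 (2.46 ± 0.10, adjusted p = 1.14e-07), a 5.87-fold rise, and at 11.40 and 11.61 in S-phase. Next stood GUCY1A2, a subunit gene of soluble guanylate cyclase, at 10.21 and 10.04 against 7.59, 8.06 and 8.16 (2.19 ± 0.14), and PDE5A, which breaks down cyclic GMP, at 9.40 and 9.33 against 7.36, 7.15 and 7.28 (2.10 ± 0.10). AKAP5, which anchors protein kinase A, rose by 2.09 ± 0.13. The ubiquitin ligase gene RNF43, which removes WNT receptors, rose 14.9-fold in normalised reads, from a mean of 11.9 to 176.7 (2.10 ± 0.16). USH1G (2.10 ± 0.22), CRISPLD1 (2.00 ± 0.12), LOC100506895 (1.95 ± 0.18), the riboflavin transporter gene GPR172B (1.81 ± 0.12) and PKHD1 (1.80 ± 0.16) completed the highest 12 with SLC2A12 and CCNE2. In the asynchronous libraries RNF43 lay at 5.53, 5.88 and 5.84 and USH1G at 5.83, 5.49 and 6.24. Both genes needed blocked or S-phase libraries to pass the filter on low values, so their folds rest on few asynchronous reads. MTRNR2L1, named after its values were seen, had the largest difference of all, 2.87 ± 0.97 (adjusted p = 0.0268), but lay at 11.31 and 7.54 against 7.79, 5.97 and 5.91, so its groups overlapped; it was highest in non-released replicate 1, as was RN45S.

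The largest fall was that of ESM1, an endothelial proteoglycan gene, at 8.50 and 8.18 against 11.62, 10.82 and 9.90 (-2.44 ± 0.34, adjusted p = 0.000110). The asynchronous libraries spread widely for ESM1, with replicate 1 the highest. The groups did not overlap, which the choice of these genes required. PTX3, a secreted pattern recognition gene, varied little, at 7.30 and 7.12 against 9.29, 9.26 and 9.12 (-2.02 ± 0.12, adjusted p = 3.69e-07). ANTXR2, which encodes an anthrax toxin receptor that binds collagen, lay at 8.81 and 8.81 against 11.11, 10.76 and 10.33 (-1.92 ± 0.16). The cytokine gene IL24 fell by 1.82 ± 0.14, CCDC144NL fell by 1.83 ± 0.10 and FJX1 fell by 1.72 ± 0.11. BCL2A1, a survival gene of the BCL2 family, fell by 1.73 ± 0.29 from a mean of 177.2 to 19.7 normalised reads, and with no filter on low values it did not pass (adjusted p = 0.0511). The remaining 5 of the lowest 12 were HIST1H2BJ, HIST1H2AH, TRAF1, CCL3 and RRS1.

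How far the block effect depended on Nutlin was asked by setting it beside the same difference in the DMSO libraries (2 non-released, 3 asynchronous). Across the 13991 genes, block differences with Nutlin and with DMSO correlated at Pearson r = 0.91, or 0.936 without DMSO asynchronous replicate 3; genes are not independent replicates, and the 2 comparisons share no library. The library labelled DMSO asynchronous replicate 3 carried epithelial markers at a summed 43667 normalised reads and luminal breast markers at 15689, against at most 15021 and 3804 in the 5 Nutlin libraries, so results are given with and without it. With all 15 libraries limma called 0 of 14298 genes (0%) for a difference of the block effect, 155 at an unadjusted p under 0.05, and voom on the recovered reads called 0.

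Without that library and DMSO S-phase replicate 2, which has 6.05 M reads and also stands apart from its group, 3 of 14193 genes (0.0211%) were called, all with a smaller block difference under Nutlin. Without DMSO asynchronous replicate 3 alone, limma called 0 genes, 261 at an unadjusted p under 0.05, so the calls also needed an S-phase library to be left out. The 3 are the antiproliferative gene BTG2 (-1.04 ± 0.12, adjusted p = 0.00297), TP53INP1 (-1.11 ± 0.13, adjusted p = 0.00297) and the stress sensor gene SESN1 (-0.79 ± 0.10, adjusted p = 0.0110), each a p53 target. With DMSO, BTG2 averaged 9.41 in asynchronous replicates 1 and 2 and 10.65 in blocked cells. With Nutlin it averaged 11.68 and 11.89, so blocked and asynchronous cells differed by 0.21. The DMSO library left out stood at 10.58 for BTG2, 12.48 for TP53INP1 and 10.10 for SESN1, against means of 9.41, 8.39 and 8.93 in the other asynchronous DMSO libraries, and an earlier look had set it apart by its p53 targets, so these p-values are no independent test. These 3 genes are named after their values were seen.

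Of the 81 members of the 4 p53 lists, 55 (67.9%) had a lower block difference with Nutlin than with DMSO, against 6412 of all 13991 genes (45.8%), without that library, and 47 (58.0%) against 6799 (48.6%) with it. Since the library was set apart by p53 targets, the former count is a description only. For CDKN1A the block difference was 0.37 with Nutlin and 1.03 with DMSO, but 0.15 with DMSO when the library was kept. For MDM2 it was 0.20 with Nutlin and 0.62 with DMSO, but -0.15 when the library was kept, so the order of Nutlin and DMSO turns for both genes. The arrest and feedback list had a median of 0.11 with Nutlin and 0.35 with DMSO, or 0.13 when DMSO asynchronous replicate 3 was kept. Without that library the histone list stood at -1.09 and -1.54, the G1/S list at 0.64 and 0.34, and the ribosome biogenesis list at -0.97 and -1.04. The G2 and mitosis list stood at 0.01 and -0.33 and the immediate early list at -0.27 and -0.53. With that library kept, the DMSO medians of these lists were, in the same order, -1.23, 0.41, -0.97, -0.25 and -0.44. None of these list differences was tested.

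**Figure D4:**
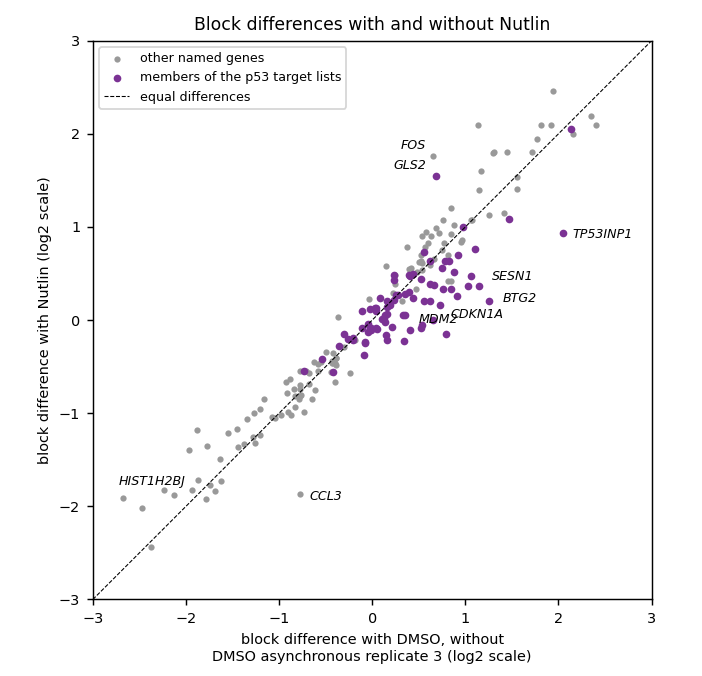
Block difference with Nutlin (vertical axis) against block difference with DMSO without DMSO asynchronous replicate 3 (horizontal axis), both non-released minus asynchronous on the log2 scale, for 127 named genes (grey) and the 81 tested members of the p53 lists (purple); the dashed line marks equal differences. BTG2, TP53INP1 and SESN1 lie under the line, with 1.25, 2.05 and 1.15 under DMSO; with that library kept their DMSO differences are 0.85, 0.69 and 0.76, and TP53INP1 would lie above it.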

How the data were processed

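RNA from U2OS cells was sequenced as single reads of 50 nt from 1000 ng of RNA, per the labels' protocols. The authors deposited 1 table of 23368 genes by 15 libraries with variance-stabilised values on a log2 scale. Per the submitters' processing notes, HTSeq, TopHat 0.9, CASAVA 1.8.2 and DESeq2 1.10.1 were used, with hg19 as the build; strand and annotation are not given in the sources used here. Inverting the transformation gave values within 0.05 of whole reads for 100% of the genes checked in the 7 Nutlin libraries. Genes without reads or with 5000 reads or more in a library were not checked there. Depths of these libraries ran from 10.25 to 23.34 M reads.

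A gene was tested if 2 or more of the 7 Nutlin libraries lay at least 1 unit over the lowest value, 4.859. The test was limma 3.58.1 (R 4.3.3; 1 mean per group, eBayes with a mean-variance trend, 4 residual and 8.6 prior degrees of freedom). The difference of the block effect between Nutlin and DMSO used all 15 libraries. Members and lists were chosen with earlier results of these data known. Named genes are the 12 largest differences each way with 50 or more mean reads and no overlap, up to 4 called members of each of 30 lists with the smallest p, a fixed panel, and others said to be chosen after their values were seen. Some named genes are not reported here. Scripts were tested on simulated data. Alternatives changed libraries, model, scaling and filters. Replicate numbers were not used to pair the samples, except in 1 of the alternatives. Sequences are from RefSeq on GRCh38.p14, a build that differs from that of the files, and were matched by symbol; genes on chromosome 8 were left out of them.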

Additional observations from a re-analysis of the deposited data

Results flagged for a closer look

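The block differences of BTG2, TP53INP1 and SESN1 were lower with Nutlin than with DMSO, by limma's test of the difference itself, when the libraries labelled DMSO asynchronous replicate 3 and DMSO S-phase replicate 2 were left out: -1.04 for BTG2, -1.11 for TP53INP1 and -0.79 for SESN1. With all 15 libraries the same differences were -0.65, 0.26 and -0.40 (limma, adjusted p = 1.0 for each). S-phase libraries do not enter these differences, so the sign for TP53INP1 depends on DMSO asynchronous replicate 3. Without DMSO asynchronous replicate 3 alone no gene was called by limma (261 at an unadjusted p under 0.05). That library had been set apart by its p53 targets, which these 3 genes are, so the values are a description and no independent test.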

How the results depend on the processing

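The deposited scale compresses differences of genes with few reads, and the 2 blocked libraries limit the precision. Calls numbered from 2392 to 3115 higher and from 2464 to 3126 lower when each of the 5 libraries was left out, and 4856 and 4932 in all without non-released replicate 1 or 2. With 15 libraries, 4900 of the 4933 called genes were also called with 7, in the same direction. The stricter filter, which tests fewer genes, gave 2253 higher and 3204 lower, and median scaling 3132 and 3852. No gene was called for a difference between Nutlin and DMSO except 3 with 13 libraries and 5 with voom on the same 13, the latter chosen after seeing the data; leaving out DMSO asynchronous replicate 3 alone (14 libraries) gave 0. The median of the G1/S list was 0.757, of the replisome list 0.528, of the interferon list 0.463 and of the ribosome biogenesis list -0.872 with quantile normalisation. The replisome median was 0.377 with median scaling and 0.366 to 0.444 with 1 library left out. With no filter the histone, interferon and NF-kB medians were -0.633, 0.408 and -0.162. Interferon genes gave 0.831 with voom and 0.482 with the stricter filter. Left-out libraries gave 0.513 to 0.641 for interferon and -0.583 to -0.276 for NF-kB genes. RRM2B reversed, to 0.28, with quantile normalisation. Of the 145 named genes, 17 lost their call with 15 libraries, 12 with quantile normalisation and 9 with no filter; the causes were not tested. Deviations of same-numbered libraries correlated at 0.15 and -0.01 between asynchronous and blocked cells, and at 0.2 and 0.2 between blocked and S-phase cells. The deviations of the 2 blocked libraries mirror each other, so these values cannot decide whether the numbers pair the samples. A replicate block gave 3354 higher and 3434 lower genes and a replisome median of 0.439, with all 145 named genes on the same side of the threshold.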

Other observations

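Some gene families outside the lists, chosen after their values were seen, leaned 1 way in blocked cells. Of all genes, 24.9% were higher and 24.7% lower, and the family counts are read against these shares. Of 163 SNORA and SNORD genes, whose small nucleolar RNAs guide the modification of ribosomal RNA, 90 were lower and none was higher (median -0.39). SNORD44 lay at 6.30 and 6.38 against 7.29, 7.15 and 7.30, and SNORA24 at 8.05 and 8.04 against 8.81 to 8.85. Most lie in introns of other genes, and reads of the host transcript could not be told apart from theirs. Of 54 genes with an EIF symbol, mostly translation initiation factors, 33 were lower, led by EIF3B (-0.96 ± 0.08). The 5 higher ones were EIF2C4 (0.77), EIF4EBP2 (0.62), EIF2AK2 (0.53), EIF4E3 (0.49) and EIF2AK3 (0.27), of which EIF2C4 is an Argonaute gene and both EIF2AK genes encode kinases of an initiation factor. Mitochondrial ribosomal protein genes counted 41 lower and 1 higher (MRPS6, 0.53) of 76, with MRPL12 at -0.76 ± 0.09, and RNA polymerase subunit genes 17 lower and 1 higher (POLR3GL, 0.54) of 31. Genes with a PSM symbol, mostly proteasome subunits, counted 20 lower and 4 higher (PSMC3IP, 0.44, PSME2, 0.31, PSME1, 0.23, and PSMD10, 0.22) of 44, with a median of -0.18 that was 0.00 with quantile normalisation. Zinc finger genes of the ZNF family counted 89 higher and 91 lower of 466, under the shares of all genes.

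Protocadherin genes counted 15 higher and none lower of 38, beside 24.9% higher and 24.7% lower of all genes. Their median was 0.25, or 0.05 with quantile normalisation. Among them was PCDHB8, at 7.0 and 7.22 against 6.34 to 6.42. TP73, which encodes a relative of p53, lay at 8.80 and 8.85 in blocked cells and at 7.06, 7.12 and 7.31 in asynchronous cells (1.66 ± 0.12, adjusted p = 8.90e-07 by limma), a 4.33-fold rise. MXD3, which encodes a MAX partner of the MYC network, lay at 9.42 and 9.31 against 7.56, 7.67 and 7.85 (1.67 ± 0.12), while MYC fell. The receptor gene TLR3, which senses double-stranded RNA, rose from a mean of 35.3 to 205.7 normalised reads, and the inflammasome gene NLRP3 fell from 463.7 to 130.8. All blocked libraries were above all asynchronous ones for TP73, MXD3 and TLR3 and under them for NLRP3.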
